A study of Caenorhabditis elegans with 2 samples.

Results

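The nuclear tRNA genes of Caenorhabditis elegans were examined as sites of eGFP-MAB-5 occupancy. Members were all genes of biotype tRNA on the nuclear chromosomes of the WBcel235 annotation (Ensembl release 115), each extended by 300 bp on both sides. This gave 612 of the 634 annotated tRNA genes, out of 46926 annotated genes of all kinds. A tRNA gene was counted as occupied when the summit of a peak, its position of highest enrichment, lay inside its extended window. The rule takes its members from the annotation and uses no peak value.

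Chromatin immunoprecipitation and sequencing (ChIP-seq) was made from whole embryos of mixed stage, with males and females pooled, in 2 biological replicates that form 1 group. The strain OP27 carries the mutation unc-119(ed3) on chromosome III and the integrated transgene wgIs27, which is labelled as an insertion targeting mab-5. Both replicates share this genotype, no strain without the fusion is among the samples used here, and all cells of the embryo were pooled. The precipitation is described as directed at the eGFP fusion, although the antibody field names mab-5. The authors deposited a relaxed peak list of 30000 peaks, background included, for each replicate and for both replicates pooled, and a thresholded list of 502 peaks, of which 481 were nuclear, selected by the irreproducible discovery rate. Signal values are the authors' enrichment measure, they are comparable only within a list, and the read depth behind them is unknown.

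MAB-5 is a Hox transcription factor that specifies cell fates in the posterior body. Transfer RNA genes are transcribed by RNA polymerase III rather than by the polymerase that reads protein-coding genes. Their promoter lies inside the gene, as an A box and a B box that the factor TFIIIC binds. TFIIIC then places TFIIIB just upstream of the start, and a run of T residues after the gene ends transcription.

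The members were short and repetitive. They were 64 to 122 bp long with a median of 72.0 bp, and all 612 matched a RefSeq tRNA entry, which gave an isotype, the amino acid carried, for all but 5. They had only 200 distinct gene sequences, 469 genes had at least 1 identical copy, and the most frequent sequence occurred 29 times. Chromosome X, which makes up 17.7% of the nuclear bases, carried 276 of them (45.1%). Joined where they overlapped, the windows formed 508 loci covering 377 kb, or 0.376% of the nuclear genome.

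The sequences of 3 tRNA genes with a thresholded summit show the internal promoter, with 40 bases before and 20 bases after the gene, on the gene's strand. They were read from the RefSeq WBcel235 genome, and the A box and then the B box are in capitals. R04D3.t2 carries valine (chrX:13306994-13307126, plus strand), T07H6.t2 alanine (chrX:6292258-6292389, minus strand) and R04A9.t1 glutamine (chrX:410351-410482, plus strand).
R04D3.t2: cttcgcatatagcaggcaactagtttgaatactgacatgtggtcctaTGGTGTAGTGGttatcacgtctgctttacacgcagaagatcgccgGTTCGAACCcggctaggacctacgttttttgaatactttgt
T07H6.t2: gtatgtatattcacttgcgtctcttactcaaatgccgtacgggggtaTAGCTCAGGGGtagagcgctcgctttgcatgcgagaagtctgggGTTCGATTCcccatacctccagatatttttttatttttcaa
R04A9.t1: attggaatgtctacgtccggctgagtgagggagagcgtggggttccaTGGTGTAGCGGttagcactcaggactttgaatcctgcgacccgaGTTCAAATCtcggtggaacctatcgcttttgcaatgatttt
In all 3 the boxes lie within the gene, and the stretch after the gene holds the T run.

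The 80 bases before the start of 3 further X-linked genes are shown because the summit fell there, with the 11 bases centred on the thresholded summit in capitals. F41D9.t3 carries asparagine (chrX:8404419-8404498, plus strand), C42D8.t1 isoleucine (chrX:5085696-5085775, minus strand) and C04E7.t1 leucine (chrX:353337-353416, minus strand). The peak beside C18A11.t2 (chrX:8036303-8036480, minus strand) is shown whole as the strongest peak in any tRNA window.
F41D9.t3: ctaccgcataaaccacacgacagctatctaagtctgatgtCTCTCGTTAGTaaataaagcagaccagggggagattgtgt
C42D8.t1: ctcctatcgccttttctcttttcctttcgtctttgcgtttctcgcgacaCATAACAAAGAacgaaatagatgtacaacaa
C04E7.t1: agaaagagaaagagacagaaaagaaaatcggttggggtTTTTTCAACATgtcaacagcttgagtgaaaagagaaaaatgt
C18A11.t2: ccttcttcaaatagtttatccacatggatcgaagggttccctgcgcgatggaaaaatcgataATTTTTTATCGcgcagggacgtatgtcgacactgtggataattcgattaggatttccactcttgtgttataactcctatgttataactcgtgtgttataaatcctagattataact
The first 3 end where the tRNA gene begins, whereas the last lies beyond the end of its tRNA gene and contains no part of it.

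More tRNA genes held a summit than the same windows did elsewhere on their chromosomes, in every list. In the pooled relaxed list, 267 of 612 tRNA genes (43.6%, exact Clopper-Pearson 95% interval 39.7 to 47.7) held a summit, against 19.3% of the same windows rotated along their chromosomes. In the thresholded list, 20 of 612 (3.27%, 2.01 to 5.0) did, against 0.288% of rotated windows. The replicates taken alone gave like shares, with 251 genes (41.0%) in replicate 1 against 19.4% rotated and 248 (40.5%) in replicate 2 against 19.1% rotated. The ratio to rotation was thus 11.4 among thresholded peaks and 2.11 to 2.26 among relaxed peaks. Rotation moved all windows of a chromosome by 1 of 100 evenly spaced offsets and kept their spacing. The highest counts of any rotation were 8 genes in the thresholded list, 138 in the pooled list, 140 in replicate 1 and 141 in replicate 2, all below the counts at the true positions. Rotated positions are a description of the genome at large, with its other base composition and gene content, and no p-value was formed. The intervals cover counting error only and treat genes as independent, although neighbouring genes can share 1 peak.

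**Figure D1:**
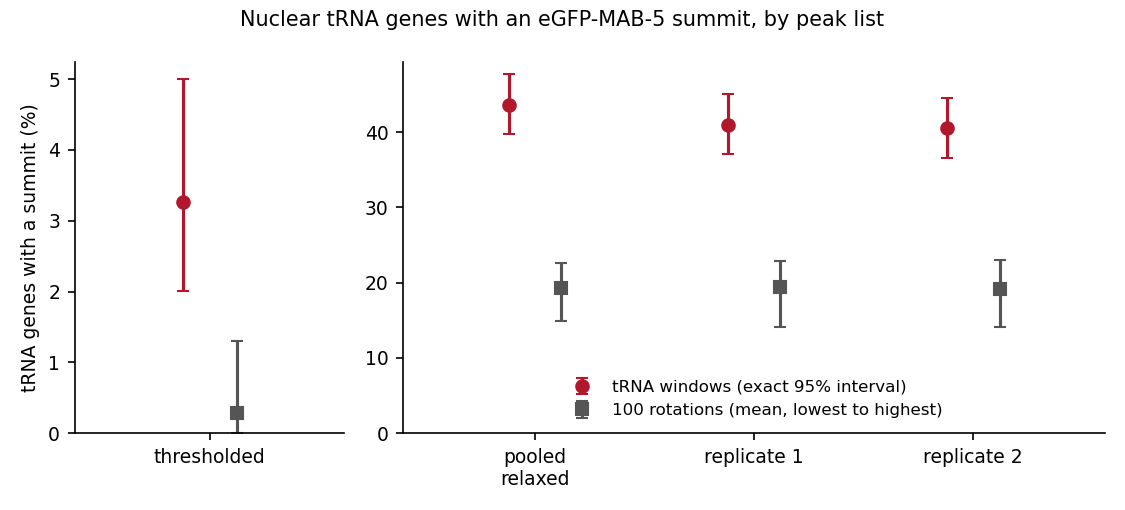
Share of the 612 nuclear tRNA genes with a summit in their window (y axis, percent) in each deposited peak list. Circles are the true positions with exact 95% intervals and squares the mean of 100 rotations with the lowest and highest rotation. The circles lie at 3.27% for the thresholded list and at 40.5% to 43.6% for the relaxed lists, above every rotation.

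Counted as loci, so that genes sharing a window count once, 18 of 508 (3.54%) held a thresholded summit and 238 of 508 (46.9%) a pooled summit. Counted as summits, 19 of the 481 nuclear thresholded summits (3.95%) and 263 of the 29978 nuclear pooled summits (0.877%) lay in windows that cover 0.376% of the bases. At the other end, 243 of the 612 genes had no summit in any list.

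Both replicates marked many of the same genes, with strengths that were only loosely related. A summit in both replicate lists was found for 149 genes (24.3%), against a mean of 34.9 genes (5.71%) and a highest count of 51 in the rotations. Replicate 1 alone marked 102 genes, replicate 2 alone 99, and neither 262, against rotated means of 83.8, 82.2 and 411. The counts of a single replicate lay within the rotations, whose highest counts were 105 for replicate 1 alone and 106 for replicate 2 alone. The shared genes were 59.4% of those of replicate 1 and 60.1% of those of replicate 2. In the shared genes the strongest summits of the replicates lay a median of 82.0 bp apart, and 84 pairs lay within 100 bp. Across the 149 genes, which share libraries and neighbourhoods and are not replicates, Spearman's rho of the strongest signals was 0.34 and Pearson's r of their log2 values 0.42. Without the genes that hold a thresholded summit, the values fell to 0.16 and 0.15 over 130 genes. Of the 20 genes with a thresholded summit, 19 had a summit in both replicate lists. The thresholded list was itself selected for agreement between these replicates, through the irreproducible discovery rate. This count and the fall in the correlations are therefore not separate evidence of agreement.

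**Figure D2:**
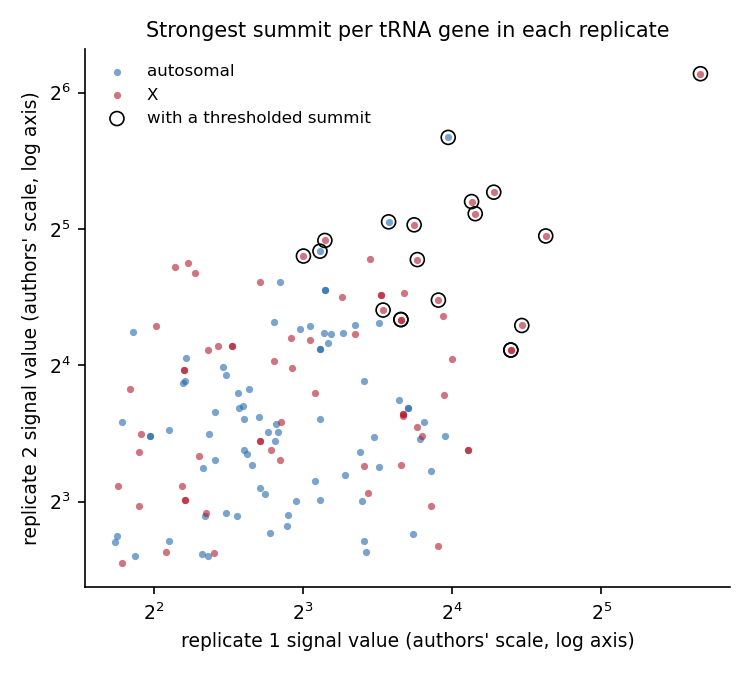
Signal value of the strongest summit of each tRNA gene in replicate 1 (x axis) and replicate 2 (y axis), both on the authors' scale and on logarithmic axes, for the 149 genes with a summit in both lists. Black rings mark genes with a thresholded summit. The ringed genes, mostly from X, hold the highest values of both replicates, and the others form a broad cloud. Some ringed genes lie low on the replicate 1 axis, down to 8.01 for R04A9.t1, among values of genes without a ring.

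The tRNA summits were strong for their lists. In the pooled list they ranged from a signal of 7.94 to 123 with a median of 14.7, against a median of 11.2 over all nuclear summits. Their median stood at percentile 77.5 of the list, against a mean of 49.6 and a highest value of 65.9 in the rotated windows. The corresponding percentiles were 71.4 in replicate 1 and 74.5 in replicate 2. Within the thresholded list they were not the strongest members, with a median of 40.5 against 42.7. The share of summits that lay in tRNA windows was 3.97% among pooled ranks 1 to 500 and 3.87% among ranks 501 to 2000, then 1.23% to rank 5000, and 0.460% in the last 10000 ranks. The first 2 of these shares were alike in the pooled list only, since they were 3.73% and 2.40% in replicate 1 and 4.39% and 2.74% in replicate 2.

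Occupancy was centred on the tRNA genes and their 5′ flank. In the pooled list, 111 summits lay upstream of the nearest tRNA gene at a median of 43.0 bp, 62 inside it and 90 downstream at a median of 94.5 bp. Per kb this was 0.690 upstream, 1.35 inside and 0.529 downstream, against 0.299 over the nuclear genome. The 100 bp before the gene start held 87 pooled summits, or 14.2 per 100 genes, against 3.04 per 100 in the rotations, and the first 100 bp from the start held 76. From 200 to 300 bp upstream the count was 15, below the 17.6 of the rotations. The thresholded summits showed the same placement, with 10 upstream at a median of 50.5 bp, 4 inside and 5 downstream.

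**Figure D3:**
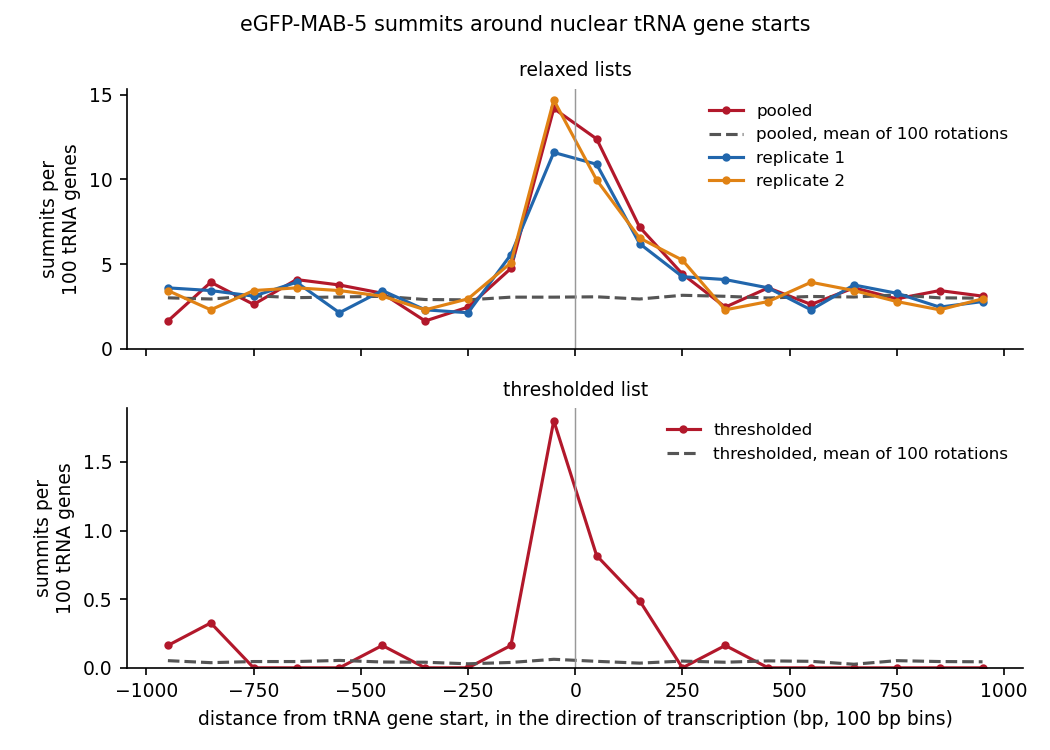
Summits per 100 tRNA genes (y axis) in 100 bp bins of distance from the tRNA gene start in the direction of transcription (x axis, bp), for the relaxed lists above and the thresholded list below. Dashed lines are the mean of 100 rotations. All lists peak in the bin just before the start, at 14.2 for the pooled, 11.6 for replicate 1, 14.7 for replicate 2 and 1.80 for the thresholded list.

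The strongest sites beside tRNA genes came mostly from chromosome X. Of the 20 genes with a thresholded summit, 17 lay on X and 3 on autosomes, which is 6.16% (3.63 to 9.68) of 276 X-linked and 0.893% (0.185 to 2.59) of 336 autosomal tRNA genes. The rotated windows gave a mean of 0.70 genes on X, with a highest count of 4, and a mean of 1.06 on autosomes, with a highest count of 7. The X count lay above every rotation, and the autosomal count lay within their range. The difference was small in the pooled relaxed list, where 46.7% of X-linked and 41.1% of autosomal tRNA genes held a summit and the intervals overlap. Among autosomes the pooled share ran from 30.8% on V to 50.7% on IV. Seen from the peaks, 16 of the 76 thresholded summits on X (21.1%, 12.5 to 31.9) lay in tRNA windows that cover 0.921% of that chromosome. On autosomes 3 of 405 (0.741%) did, with windows that cover 0.259%. Protein-coding starts did not share this order, since a thresholded summit lay within 336 bp of 0.476% of starts on X and of 1.31% on autosomes.

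**Figure D4:**
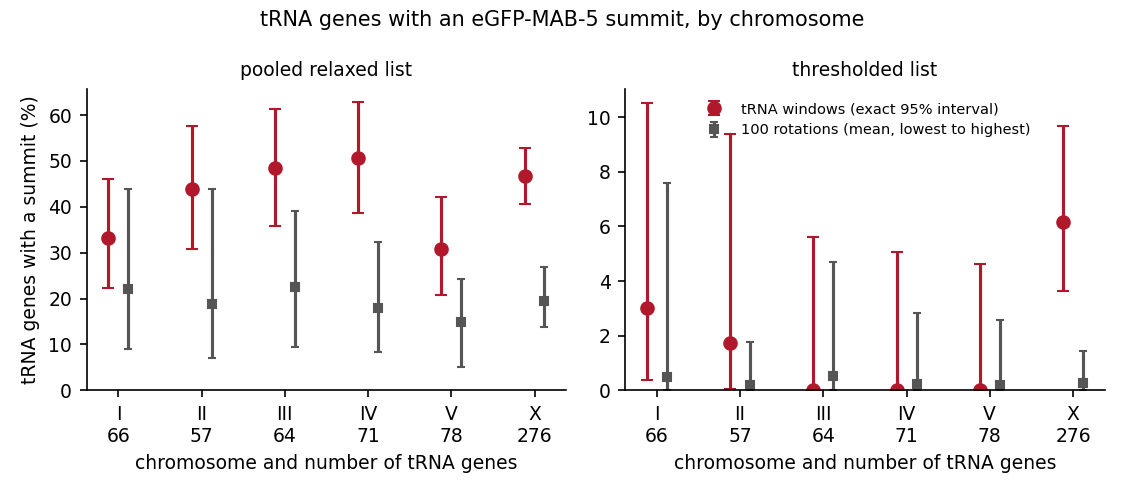
Share of tRNA genes with a summit (y axis, percent) on each chromosome, with the number of tRNA genes below its name, in the pooled relaxed list (left) and the thresholded list (right). Circles carry exact 95% intervals, and squares the mean, lowest and highest of 100 rotations. X stands at 46.7% and 6.16%, and no tRNA gene of III, IV or V had a thresholded summit.

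The contrast between X and autosomes was largest at the top of the lists. Relative to the bases their windows cover, tRNA windows held 22.9 times their share of the X summits among the first 502 pooled ranks, and 2.86 times their share of the autosomal ones. Among ranks 503 to 2000 the ratios were 11.4 on X and 8.94 on autosomes, and among ranks 10001 to 30000 they were 1.26 and 1.52. In the first 502 ranks of replicate 1 the ratios were 18.1 and 2.94, and in those of replicate 2 they were 20.4 and 5.80. Among ranks 503 to 2000 the ratios were 6.43 and 6.31 in replicate 1, and 9.05 and 5.97 in replicate 2. On autosomes the ratio was thus higher below rank 502 than above it in the pooled list and replicate 1, and about equal in replicate 2. The autosomal values of the first 502 ranks rest on 3 summits in the pooled list, 3 in replicate 1 and 6 in replicate 2. The pooled summits of X-linked tRNA genes had a median signal of 17.0 and those of autosomal ones 13.5. Median GC content of the windows was 36.7% on X and 40.2% on autosomes, and its part in this difference was not tested.

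The tRNA gene with the strongest peak was C18A11.t2, an arginine tRNA gene on X. Its signal was 123 in the pooled list (rank 19), 50.7 in replicate 1 (rank 10) and 70.5 in replicate 2 (rank 33), the highest of all tRNA genes in each list. Its window held 2 thresholded summits. The stronger, that of the peak printed above, lay 272 bp downstream of the gene, farther than the strongest one of any other member. It lay 4900 bp from the nearest protein-coding start, that of xol-1, which acts early in sex determination and dosage compensation. The peak printed above contains an inverted repeat with arms of 12 bases around its summit. The arms hold the 8 letters GCGCAGGG, once on each strand. These letters belong to a motif known from the sites on X that recruit the dosage compensation complex. Searched on both strands within 100 bp of summits after this peak had been read, they occurred at 1 of 16 thresholded X summits in tRNA windows and at 9 of 60 (15.0%) of those outside. On autosomes they occurred at 0 of 3 and at 1 of 402 (0.249%), and at the centres of 0.0474% of rotated windows. C18A11.t2 was the only thresholded tRNA site with these letters.

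The next 4 genes carried summits just upstream of their start. C37A2.t1, a cysteine tRNA gene on chromosome I within the cyclin E gene cye-1, had a signal of 58.4 pooled, 15.7 in replicate 1 and 51.0 in replicate 2, with its summit 50 bp upstream. F41D9.t3, within the gene of the anion transporter family member sulp-3, had 56.7 pooled, 19.4 in replicate 1 and 38.6 in replicate 2, with its summit 35 bp upstream. C42D8.t1, whose nearest protein-coding start is that of the ETS-type factor gene ets-5, had 56.2 pooled, 24.7 in replicate 1 and 30.9 in replicate 2, with its summit 26 bp upstream. C04E7.t1 had 54.3 pooled, 17.5 in replicate 1 and 36.8 in replicate 2, with its summit 37 bp upstream. The last summit lay 246 bp from the start of sor-3, a gene known for keeping Hox genes repressed. Their pooled ranks were 109, 118, 119 and 132. C42D8.t1 was second among tRNA genes in replicate 1, and C37A2.t1 was second in replicate 2.

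Further down, the summits lay on either side of the gene or within it. R04D3.t2 had a signal of 46.4 pooled, 17.8 in replicate 1 and 34.6 in replicate 2, 28 bp beyond the gene's end. T07H6.t2 had 43.7 pooled, 13.4 in replicate 1 and 32.7 in replicate 2, 11 bp upstream of the start. Both are among the genes whose internal boxes are printed above. The isoleucine gene T21B4.t1 on II, inside the collagen gene col-85, had 42.7 pooled, 11.9 in replicate 1 and 33.2 in replicate 2, with the summit inside the tRNA gene. The glutamate gene named rte-1 had 41.9 pooled, 13.6 in replicate 1 and 27.4 in replicate 2, also inside. R04A9.t1 had 39.7 pooled, 8.01 in replicate 1 (rank 3924) and 27.9 in replicate 2 (rank 329), 146 bp upstream. It ranked far lower in replicate 1 than in replicate 2.

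The remaining 10 genes had pooled signals of 34.4 to 38.7. Of these, F41D9.t1, an arginine gene with 38.3 pooled and 37.3 in replicate 2, had no summit in the list of replicate 1. The serine genes C53C7.t1 and C53C7.t2 shared 1 peak of 37.9, which was 21 in replicate 1 and 17.3 in replicate 2. The divergent pair M02F4.t1 (glycine) and M02F4.t2 (glutamate) also shared a peak, of 37.6, which was 12.6 and 20.2 in the replicates. In both pairs the shared summit lay upstream of each gene, at 59 to 72 bp in the first and 51 to 66 bp in the second.
The lysine gene C33G3.t2 had 38.7 pooled, 8.85 in replicate 1 and 30.2 in replicate 2. The arginine gene F47G6.t1 on I, within the myosin gene spe-15, had 37.0 pooled, 8.65 in replicate 1 and 28.6 in replicate 2. The tryptophan gene sup-7, whose mutant alleles are classic amber suppressors, had 36.8 pooled, 15.0 in replicate 1 and 22.3 in replicate 2, with the summit 33 bp downstream. The scales of the lists differ, so these values are to be read within a list. The tyrosine gene C02B4.t2 had 36.4 pooled, 11.6 in replicate 1 and 21.2 in replicate 2. The glutamate gene C28G1.t1 had 34.4 pooled, 22.1 in replicate 1 and 19.6 in replicate 2, and was among the 3 highest tRNA genes in replicate 1. Its summit lay 53 bp upstream of the tRNA gene and 44 bp from the start of the protein-coding gene C28G1.2, the single thresholded case nearer to a protein-coding start. C28G1.t1 at rank 497 was the last member inside the thresholded list, and W03G11.t1 at rank 504 and the neighbours F15G9.t1 and F15G9.t2, which share a peak at rank 506, were the first outside it, all with 34.3.

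The occupied genes did not come from 1 kind of tRNA. The 20 thresholded members spanned 14 of 21 isotypes, with 3 arginine, 3 glutamate, 2 isoleucine and 2 serine genes and 1 of each other. In the pooled list the share ran from 28.6% of phenylalanine genes (4 of 14, 8.39 to 58.1) to 76.9% of cysteine genes (10 of 13, 46.2 to 95), among isotypes with at least 12 genes. That order did not hold in the replicates: 53.8% of cysteine genes held a summit in replicate 1 and 23.1% in replicate 2. Alanine genes were high in the 3 relaxed lists, with 58.8% pooled, 61.8% in replicate 1 and 55.9% in replicate 2, while 1 of 34 (2.94%) held a thresholded summit. The intervals of the isotypes overlap widely, and 21 isotypes were compared.

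The shares differed little with the surroundings of the gene. A pooled summit was held by 44.9% of the 198 genes in an intron and more than 1000 bp from a protein-coding start, 42.4% of the 191 within 1000 bp of such a start, and 43.4% of the 221 in neither class. Genes with another tRNA gene within 1000 bp gave 42.6% and isolated genes 44.2%. Of the 20 thresholded members, 14 lay over 1000 bp from any protein-coding start and 7 lay in introns at any distance from a start. Of all 612 members, 421 (68.8%) and 283 (46.2%) did so.

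Genes without an identical copy held fewer summits than those with copies. Of 143 genes whose sequence is found once, 0 held a thresholded summit, which allows a share of up to 2.55% (exact upper limit), and 32.2% (24.6 to 40.5) a pooled one. Genes with 2 to 9 copies gave 4.61% (1.87 to 9.26) and 45.4% (37.3 to 53.7), and the 317 genes with 10 or more gave 4.10% (2.20 to 6.91) and 47.9% (42.3 to 53.6). The thresholded intervals of these classes overlap that of single-copy genes. In the same order of classes the shares were 35.7%, 40.8% and 43.5% in replicate 1, and 28.7%, 48.7% and 42.0% in replicate 2. The shares thus rose from class to class in the pooled list and in replicate 1, but not in replicate 2. The pooled interval of genes with 2 to 9 copies overlaps those of both other classes. On X alone the pooled shares were 36.8%, 46.2% and 50.6% in the same order. The strongest pooled summit lay inside the gene in 15.2%, 20.3% and 26.3% of the occupied genes of these classes. A B box was found in 90.9% of single-copy genes, 92.1% of those with 2 to 9 copies and 100% of those with more. The sources used here do not say how reads that match several copies were placed, and the part of this step in these counts was not tested.

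Identical genes differed in occupancy. The glycine sequence with 29 copies, 11 on X and 18 on autosomes, held a pooled summit at 8 of the X copies and 7 of the autosomal ones, with signals from 8.41 to 37.6. The arginine sequence of C18A11.t2, with 10 copies all on X, held a summit at 6, with signals from 9.48 to 123. The value of 123 is that of the peak beyond the end of C18A11.t2, which contains no part of that gene. None of the 20 sequences with 10 or more copies was occupied at all of its copies in the pooled list, and each was occupied at some. In that list 43.6% of all tRNA genes and 19.3% of rotated windows held a summit. At such shares most sets of 10 or more genes would be occupied in part, so this count says little about identical copies. For the 43 sequences with copies on both X and autosomes, 94 of 185 X copies (50.8%) and 106 of 223 autosomal copies (47.5%) held a pooled summit. For the same sequences, a thresholded summit was held by 14 of the X copies (7.57%) and 3 of the autosomal ones (1.35%). The higher share on X at the top of the list was therefore present among genes of identical sequence.

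Internal promoter letters were near universal and so told occupied and unoccupied genes apart little. The B box core GTTCNANNC was found on the gene strand of 587 of 612 tRNA genes (95.9%), and on either strand in 97.7% of tRNA windows against 22.8% of rotated windows of the same length. It was present in 97.0% of genes with a pooled summit, 95.1% of those without and all 20 with a thresholded summit. The A box in its degenerate consensus, searched in place of a stricter form that only 9.97% of genes held, was present in 99.6% of genes with a pooled summit and 94.8% of those without. On either strand it was found in 98.5% of tRNA windows and in 53.5% of rotated windows. TTTT followed within 20 bp of the end of 98.4% of tRNA genes, against 25.4% of rotated stretches. Annotated tRNA pseudogenes, 209 in RefSeq, held the B box core in 78.9% of cases and a pooled summit in 23.0% (17.4 to 29.3). Rotated tRNA windows gave 19.3%, and the pseudogene windows were not rotated themselves. A pooled summit was held by 47 of 180 pseudogenes on autosomes (26.1%, 19.9 to 33.2) and 1 of 29 on X (3.45%, 0.0873 to 17.8). A thresholded summit was held by 1 of the 209 pseudogenes (0.478%), and 6 of their windows overlapped a tRNA window.

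The site of Hox proteins with their PBC partners was not found at the tRNA peaks at the top of the list. TGATNNAT, searched on both strands within 100 bp of the summit, was found at 0 of 19 thresholded tRNA summits and at 138 of 462 (29.9%) of the other nuclear summits. On X it was found at 0 of 16 and at 21 of 60 (35.0%). In the pooled list it was found at 23 of 263 tRNA summits (8.75%) and at 15.4% of the others. The tRNA windows themselves are poor in these letters, with 8.17% of their centres against 15.6% of rotated centres. The pooled share at tRNA summits was therefore near that of tRNA genes in general. At a share of 8.17%, few of 19 thresholded summits would hold these letters, so the 0 of 19 does not set them apart from other tRNA genes. Absence of these letters says nothing about other sites or partners in the window.

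Base composition differed between tRNA and rotated windows. The median GC content was 38.6% in tRNA windows and 35.1% in rotated ones, 38.8% in tRNA windows with a pooled summit, 38.4% in those without and 37.0% in those with a thresholded summit. Restricted to windows of 35.6% to 41.4% GC, a comparison added after the values were seen, 46.3% of tRNA windows and 17.2% of rotated windows held a pooled summit, and 3.26% and 0.408% a thresholded one. The part of base composition in the shares was not tested further.

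Other short RNA genes were set beside the tRNA genes with the same extension. Small nucleolar RNA genes, which guide the chemical modification of ribosomal RNA, gave 5.49% (3.34 to 8.44) in the thresholded list, above the 3.27% of tRNA genes, and 40.8% (35.5 to 46.1) in the pooled list, below their 43.6%. Over all nuclear chromosomes both intervals overlap those of tRNA genes. Spliceosomal snRNA genes gave 3.1% and 29.5%, microRNA genes 1.15% and 26.1%, piRNA genes 0.0911% and 20.6%, and starts of protein-coding genes 1.2% and 24.5%. The 20 annotated nuclear rRNA genes, all on autosomes, gave 0 in every list, with an exact pooled upper limit of 16.8%. A high share is thus not particular to tRNA genes among RNA genes, and it was not found in every class. On X the pooled share was 46.7% (40.7 to 52.8) for tRNA genes, 33.3% (18.0 to 51.8) for snoRNA genes and 17.6% (9.70 to 28.2) for microRNA genes. The first interval overlaps the second and not the last. A thresholded summit on X was held by 2 of 33 snoRNA genes (6.06%, 0.743 to 20.2) and 17 of 276 tRNA genes (6.16%, 3.63 to 9.68). Of the 74 microRNA genes on X, 0 held one, with an exact upper limit of 4.86%. The X share of tRNA genes in this list was thus like that of snoRNA genes, which rests on few genes. The autosomal shares differed, since 17 of 313 snoRNA genes (5.43%) and 3 of 336 tRNA genes (0.893%) held a thresholded summit there. The exact intervals of these autosomal shares do not overlap, and the cause of the difference was not tested.

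**Figure D5:**
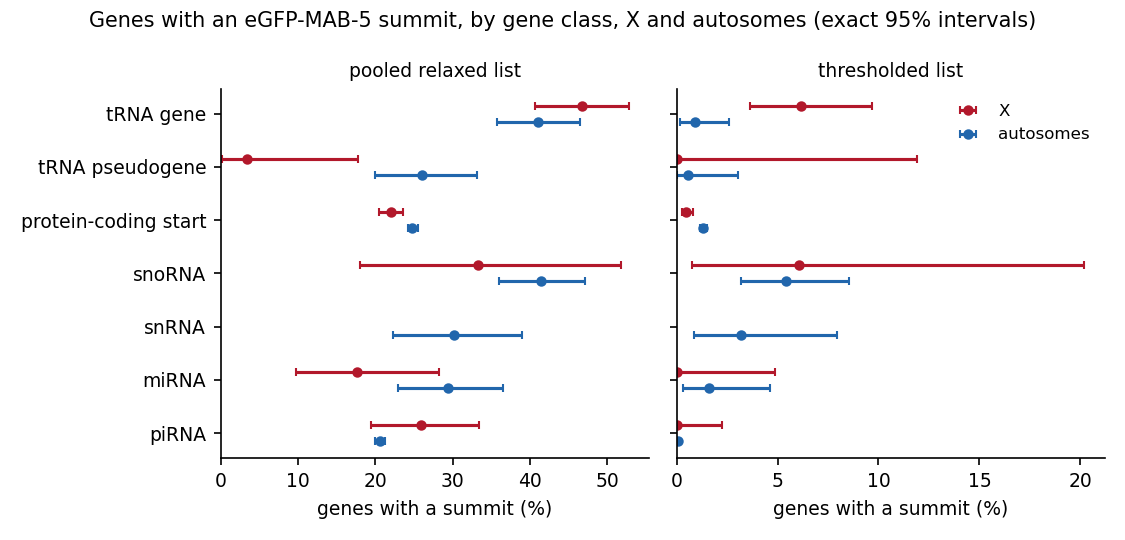
Share of genes with a summit (x axis, percent) by gene class on X and on autosomes, with exact 95% intervals. The pooled relaxed list is on the left and the thresholded list on the right. Classes with fewer than 20 genes on X or on autosomes are not drawn there, and rRNA genes are not drawn. The tRNA genes reach 46.7% on X and 41.1% on autosomes in the pooled list, with autosomal snoRNA genes at 41.5%.

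Genes that serve tRNA synthesis and use were set beside protein-coding genes in general. The list of 54 genes, of which 48 were found by symbol, covered RNA polymerase III and its factors, cytosolic aminoacyl-tRNA synthetases, and tRNA processing and export. Counting summits from 2000 bp before a start to 500 bp after it, a thresholded summit was found for 1 of 48 (2.08%), against 2.48% of all nuclear protein-coding genes. That gene was rpac-19, a subunit shared by RNA polymerases I and III, with a signal of 36.5 and its summit 1592 bp upstream. A pooled summit was found for 28 of 48 (58.3%), against 54.3% of all. These were 11 of 21 polymerase III genes (52.4%), 14 of 20 synthetase genes (70.0%) and 3 of 7 processing and export genes (42.9%). Replicate 1 marked 10 of the synthetase genes and replicate 2 marked 12. Over the whole list both shares were near the background.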

How the data were processed

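Peak lists from eGFP-MAB-5 ChIP-seq of 2 biological replicates were used in build ce11. Per the file descriptions deposited by the authors, relaxed peaks with background were called on each replicate and on both pooled against a control alignment, and the thresholded list was derived by the irreproducible discovery rate. The signal value of each peak and its summit offset are as deposited by the authors. The sources used here do not give their scale, the aligner, the peak caller or any version. Read depth is unknown, and the control library is not analysed here. The ce10 lists were not used, because the annotation is of the other build.

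The tRNA genes came from Ensembl release 115 for WBcel235, and isotypes, pseudogenes and sequences from RefSeq for the same assembly. Windows of 300 bp were compared with 100 rotations per chromosome at evenly spaced offsets. Shares carry exact Clopper-Pearson 95% intervals for counting error only. No test was made, since the design has 1 group. Named genes were all tRNA genes with a thresholded summit, the 10 highest in the pooled list, the 3 highest in each replicate list, those at the threshold, and pathway genes with a thresholded summit. Sequences were printed only where no stretch of 30 bases recurs on chromosome I. The members, lists and motifs were chosen with earlier results of these data known, and the degenerate A box and GCGCAGGG were added after values or sequences were seen. Alternatives were other windows, interval overlap, merged loci, each replicate alone, stricter lists, shifted windows, genes away from protein-coding starts, and, added later, autosomes alone and single-copy genes. The statistics were tested on simulated positions. Python 3.11.15, numpy 2.4.6, scipy 1.17.1 and matplotlib 3.10.9 were used.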

Additional observations from a re-analysis of the deposited data

How the results depend on the processing

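The share of tRNA genes with a thresholded summit, 3.27% as reported, was 3.1% with 100 bp windows, 4.08% with 1000 bp windows, 3.54% for merged loci and 1.31% with the higher-signal part of the thresholded peaks, and ran from 3.27% to 3.43% with the strongest 502 peaks of 1 replicate alone. The pooled share, 43.6% as reported, was 30.9% with 100 bp, 65.0% with 1000 bp, 37.6% for peak intervals overlapping the gene, 46.9% for merged loci, 44.2% away from protein-coding starts and 20.1% with the strongest 5000 peaks, and ran from 40.5% to 41.0% with 1 replicate. The median signal percentile, 77.5 as reported, was 85.4 with 100 bp, 61.9 with 1000 bp and 73.5 away from protein-coding starts, and ran from 71.4 to 74.5 with 1 replicate. The ratio to rotated or shifted windows stayed above 1 in all 9 settings for each list, from 4.60 to 22.9 for thresholded and from 1.40 to 6.03 for pooled summits. Without chromosome X, an alternative added after the values were seen, the shares were 0.893% and 41.1%, with ratios of 2.83 and 2.15, and the 3 thresholded autosomal genes lay within the 0 to 7 of the rotations. For gene sequences found once, also added, they were 0% and 32.2%, the latter with a ratio of 1.66. The thresholded result thus rests mostly on X and on genes with identical copies, and the cause was not tested. With 2 replicates in 1 group, no strain without the fusion and no read counts, the spread between replicates is known only as the range of 2 values. No paired analysis was possible because the samples form a single group.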

Other observations

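The 22 mitochondrial tRNA genes, which are not members because they lie on a separate genome transcribed by another polymerase, also held many summits. The mitochondrial genome of 13794 bases carried 21 of the 502 thresholded peaks, and 15 of the 22 genes held a thresholded summit within 300 bp. Replicate 1 gave 20 genes and replicate 2 gave 17. Their windows cover 6941 bases of that genome, so the count says little about the tRNA genes themselves. The part of mitochondrial genome copy number in these peaks was not tested.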
